A study of Mus musculus with 34 samples.

Results

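Receptor tyrosine kinases of the MET, platelet-derived growth factor (PDGF) and fibroblast growth factor (FGF) receptor families were followed across 3 mouse colorectal cancer cell lines. The members are the genes Met, Mst1r, Pdgfra, Pdgfrb, Fgfr1, Fgfr2, Fgfr3 and Fgfr4, chosen by name, and all 8 were among the 14107 genes of the count table. The names of the lines are NaJa-D, NaJa-F and NaJa-G. They were grown from the peritoneal lavage of 3 C57BL/6N mice that had received colon organoids, so each line stands for 1 recipient mouse. The paper states that all 3 lines came from the same organoid culture, which was derived from 1 male donor mouse. All groups, the controls included, share the genotype VillinCreERT2, BrafV600E/+, Trp53R172H and APCdel, in which a villin promoter, active in intestinal epithelium, drives the inducible Cre. Cells received 0.5 µM encorafenib, which blocks the mutant form of BRAF, or the solvent DMSO, and RNA-seq libraries were made from total RNA at day 1 or day 5. The 34 libraries form 12 groups of line, treatment and day, with 3 libraries each except 2 groups with 2 libraries, NaJa-F under encorafenib and NaJa-G in DMSO, both at day 5.

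Receptor tyrosine kinases sit in the cell membrane, bind a growth factor outside the cell, pair up and phosphorylate each other inside it. Adaptor proteins then pass the signal to RAS, RAF, MEK and ERK and to PI3K and AKT. In normal gut, MET and MST1R are epithelial receptors whose ligands come mainly from stroma and plasma, PDGF receptors mark fibroblasts and pericytes, and the epithelial and mesenchymal FGF receptors answer different FGFs. In colorectal cancer cells with mutant BRAF, receptors upstream of RAS are known as a route by which ERK signaling can return under a BRAF inhibitor.

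The promoters of Met, Fgfr3 and Pdgfra are shown because these receptors stood for 3 patterns in the data. Met was the most abundant transcript and Fgfr3 the one higher under encorafenib in every line. In DMSO, Pdgfra was lower in NaJa-D than in both other lines. The sequences are from RefSeq on GRCm38.p6, plus strand, and end at the base before the earliest annotated transcript start. Capitals mark GGGCGG, the SP/KLF motif, or its reverse complement.
Met, chr6:17463707-17463799: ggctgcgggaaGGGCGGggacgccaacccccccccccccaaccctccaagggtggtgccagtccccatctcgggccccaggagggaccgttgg
Fgfr3, chr5:33721474-33721673: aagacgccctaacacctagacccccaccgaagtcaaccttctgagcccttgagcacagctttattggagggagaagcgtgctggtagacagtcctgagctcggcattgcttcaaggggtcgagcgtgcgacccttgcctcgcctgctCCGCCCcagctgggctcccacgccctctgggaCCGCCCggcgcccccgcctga
Pdgfra, chr5:75152001-75152250: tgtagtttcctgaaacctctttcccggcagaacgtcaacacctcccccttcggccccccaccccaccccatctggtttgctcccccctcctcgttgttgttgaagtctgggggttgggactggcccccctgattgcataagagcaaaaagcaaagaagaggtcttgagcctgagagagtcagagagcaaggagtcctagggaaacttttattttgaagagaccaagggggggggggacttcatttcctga

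In the full windows of 300 bases, GC content was 75.7% for Met, 69.7% and 73% for the Fgfr3 windows, and 51.0% for Pdgfra. The median over 32851 RefSeq promoter windows was 52.7%. On both strands, GGGCGG was found in 35.7% of all windows, the AP-1 motif TGANTCA in 7.81%, the ETS motif CCGGAA in 14.9%, the ZEB/SNAI E-box CAGGTG in 20.2% and the T-cell factor motif CTTTGNNC in 17.2%. The Met window held SP/KLF, AP-1 and E-box matches, the Fgfr3 windows SP/KLF matches and the Pdgfra window none of the 5 motifs. A match is a description of the letters and not of a bound factor.

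The labelled cell type was first compared with marker transcripts. All 10 epithelial markers were in the table, and 10, 9 and 8 of them exceeded 1 CPM (which is the count scaled to a common library size with TMM factors) in every library of NaJa-D, of NaJa-F and of NaJa-G, in this order. Their sums in DMSO were 8093 to 8952 CPM (NaJa-D), 5408 to 6563 (NaJa-F) and 2682 to 4242 (NaJa-G). At an adjusted p below 0.01 by limma-voom, 9 of them were lower and 0 higher in NaJa-G against NaJa-D in DMSO. Of 8 mesenchymal markers, 7 were higher and 1 lower, beside 33.3% of all genes higher and 34.1% lower. The paper describes NaJa-D as epithelial-like, NaJa-G as mesenchymal-like and NaJa-F as intermediate. The leukocyte markers Ptprc, Adgre1, Lyz2 and Cd3e and the endothelial markers Pecam1, Cdh5, Tek and Emcn were not in the table. Of the same lists, Cd68, Csf1r and Kdr were, and Csf1r, a macrophage receptor, was higher under encorafenib in all 6 comparisons (1.92 to 3.01). Of 5 mesothelial markers, Wt1 and Krt5 were not in the table and the other 3 summed to 497 to 3520 CPM, nearly all Msln, which was higher under encorafenib in all 6 comparisons, as was Upk3b. The part of such cells in the receptor results was not tested. In the paper, the PCR band of the wild-type Apc allele disappeared with passage, which it reads as loss of host cells. The paper gives the loss of wild-type Trp53 at higher passages as further evidence that host cells such as fibroblasts were absent. Total counts ranged from 46007050 to 80121299 per library. One NaJa-D library, DMSO day 1 replicate 3 by its title, is given as NaJa-G in another label. It correlated at 0.995 with the other NaJa-D libraries of its group and at most at 0.920 with NaJa-G DMSO day 1, and it was kept under its title. Without it, the same receptors passed the test in each comparison that uses its group, except Met for NaJa-F against NaJa-D.

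Met was by far the most abundant receptor transcript. Met (ENSMUSG00000009376, GRCm38 chromosome 6, 17463800 to 17573980) encodes the receptor for hepatocyte growth factor. Per kilobase of annotated exon, its group means were 31.6 to 66.1 CPM per kb, and it made up 84.5% to 98.5% of the summed level of the 8 receptors. The share fell below 90% in no group of NaJa-D or NaJa-F. In NaJa-G the share was 92.4% ± 0.33 in DMSO day 1 and 84.5% ± 0.34 in encorafenib day 5 (SD, n = 3 each). It was 92.0% ± 1.64 in DMSO day 5 (n = 2) and 87.5% ± 0.84 in encorafenib day 1 (n = 3). Fgfr1 reached 7.06% and Fgfr3 4.49% of the sum, both in NaJa-G under encorafenib at day 5, and the other receptors stayed at or below 1.40%. With coding length in place of exon length, Met still held 75.7% to 97.8%.

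**Figure D1:**
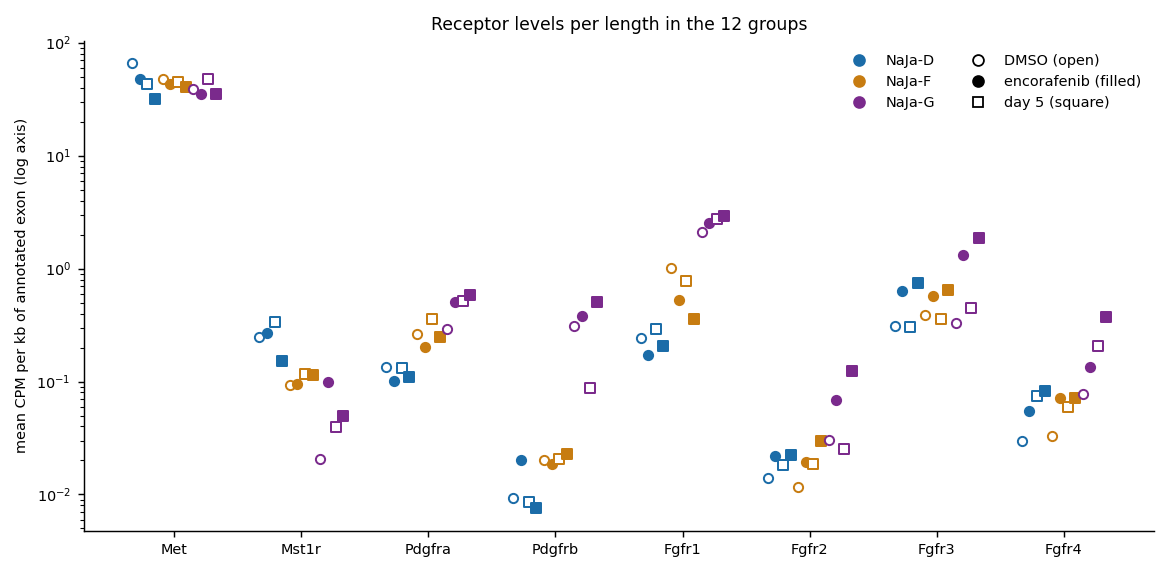
Mean CPM per kb of annotated exon (log axis) for each receptor in the 12 groups, colored by line, with DMSO open, encorafenib filled, day 1 as circles and day 5 as squares. Met sits between 31.6 and 66.1 CPM per kb in all groups, while Fgfr1, the next highest, does not exceed 2.95.

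Depth behind the values differed widely. Met had 12428 to 25622 counts per library, Fgfr1 84 to 2145, Fgfr3 90 to 947 and Pdgfra 50 to 430. Mst1r had 2 to 103 counts, Fgfr2 6 to 108, Fgfr4 4 to 95 and Pdgfrb 0 to 198. With CPM taken from total counts alone, without TMM factors, every gene of the table exceeded 1 CPM in at least 2 libraries. On that scale Fgfr2 and Fgfr4 exceeded it in 3 libraries only, all of NaJa-G encorafenib day 5, Pdgfrb in 9 libraries of NaJa-G and Mst1r in 7 of NaJa-D. A receptor that entered the table through 1 group or 1 line in this way had to be high there. Counts of receptors below, and the differences of Fgfr2, Fgfr4, Pdgfrb and Mst1r that set those libraries against others, are therefore descriptions, and for the latter no p is given.

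**Figure D2:**
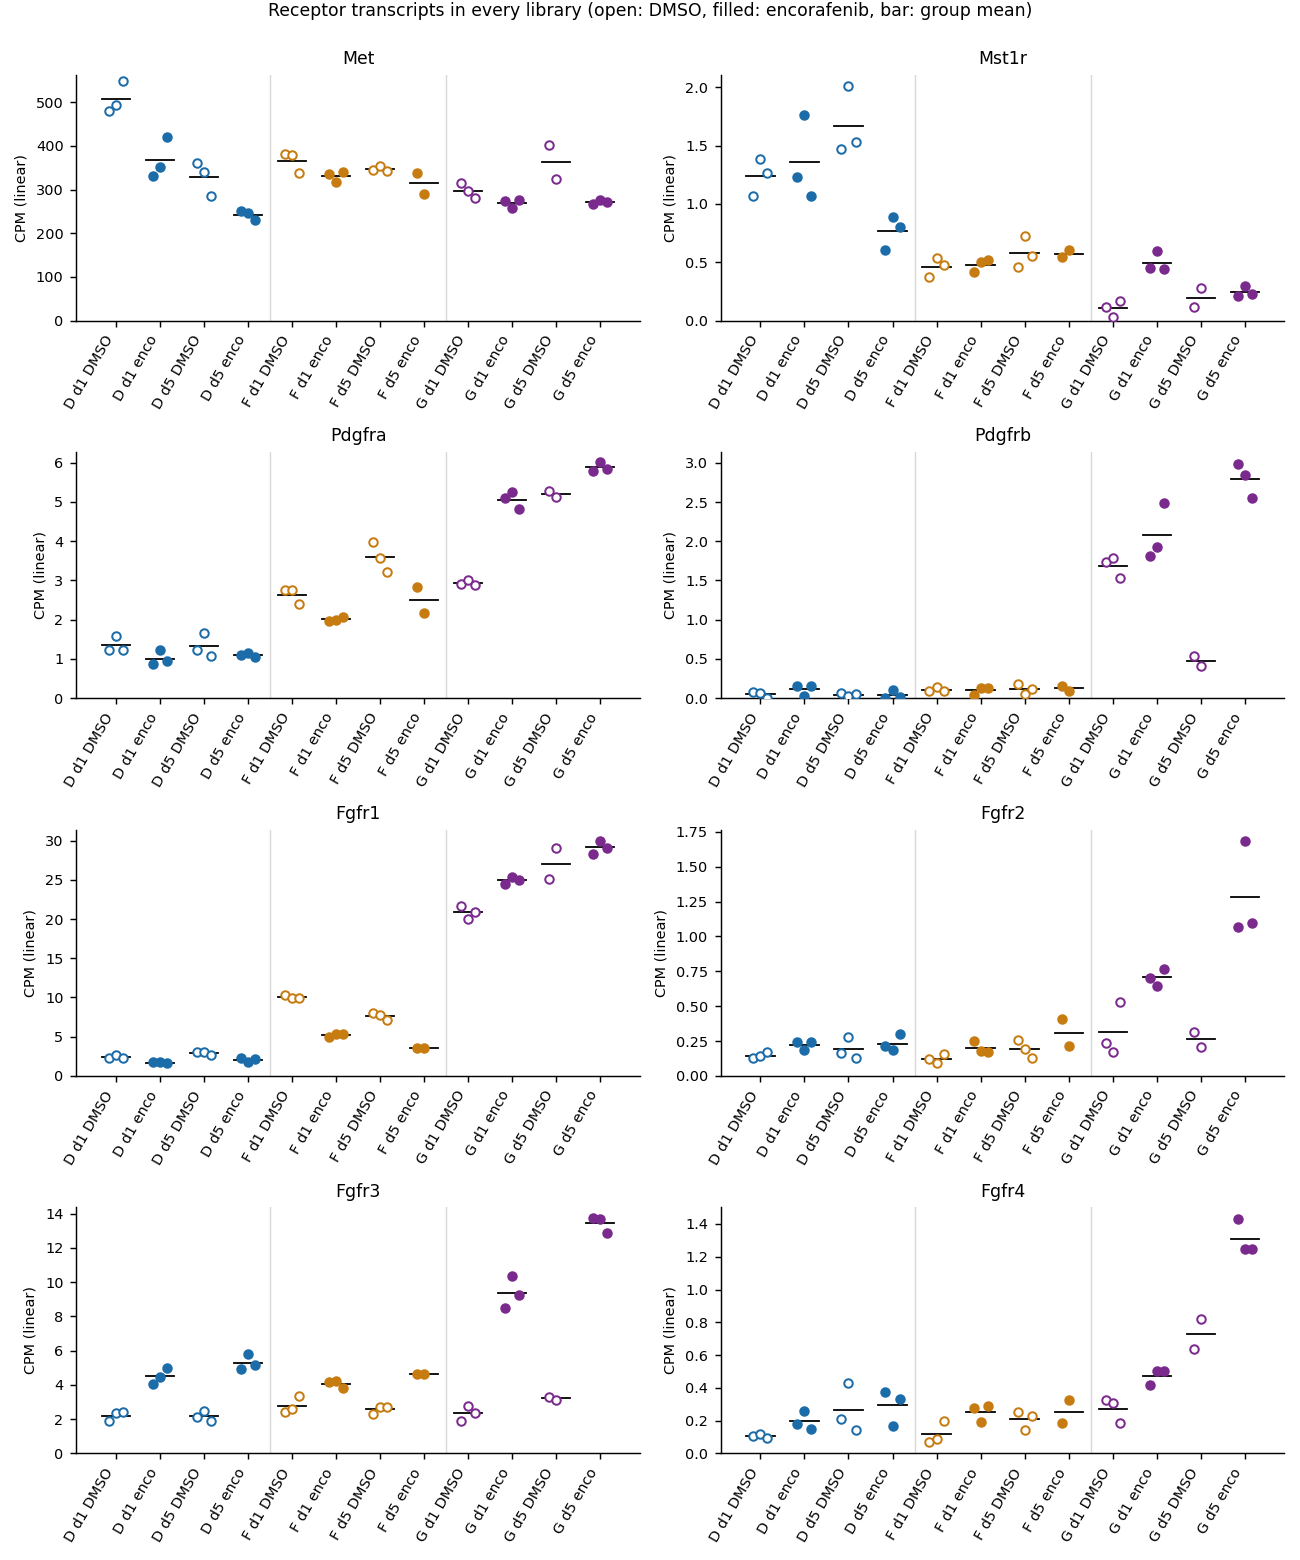
CPM of the 8 receptors in each of the 34 libraries (linear axes from 0), by line, day and treatment, with open points for DMSO, filled points for encorafenib and a bar for the group mean. Fgfr3 is higher under encorafenib in every line, Fgfr1 steps up from NaJa-D to NaJa-F to NaJa-G, and Pdgfrb is near 0 outside NaJa-G.

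The lines were compared in DMSO to ask how the receptor repertoire differed before treatment, with the mean of both days. Met and Mst1r, the MET family, had lower levels in NaJa-G compared with NaJa-D, for Met in the day 1 libraries only. Pdgfra, Pdgfrb, Fgfr1 and Fgfr4 were higher. Together, 6 of the 8 receptors were at an adjusted p below 0.01 by limma-voom, beside 33.3% of all genes higher and 34.1% lower. This count is a description, since Mst1r entered the table only through NaJa-D and Pdgfrb only through NaJa-G. For NaJa-F against NaJa-D, 2 receptors were higher and 2 lower, beside 32.6% and 29.0% of all genes. For NaJa-G against NaJa-F, 4 were higher and 1 lower, beside 25.2% and 29.2%. The median log2 fold change of the 8 receptors was 0.11, 1.05 and 0.57 in these 3 comparisons, and that of all genes was 0.021, 0.0083 and -0.0074.

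Met differed between the lines mainly in the day 1 libraries. Its lowest, median and highest DMSO libraries were at 284, 421 and 548 CPM for NaJa-D, 338, 350 and 381 for NaJa-F and 281, 316 and 402 for NaJa-G, and the 3 ranges overlapped. NaJa-G had a log2 fold change of -0.31 ± 0.07 (SE) from NaJa-D (adjusted p = 9.83e-05). It rested on day 1, with -0.77 for DMSO day 1 alone (adjusted p = 7.78e-09), while with DMSO day 5 alone it was 0.14 (adjusted p = 0.199). The NaJa-F difference of -0.19 was -0.47 with day 1 alone and 0.09 with day 5 alone. The paper instead names Met, with Pdgfra, among receptor transcripts more abundant in NaJa-G in DMSO, from a heatmap of z-scores. Why these readings of Met differ was not tested.

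Mst1r showed the clearest fall of the family along the lines. Mst1r (ENSMUSG00000032584, chromosome 9, 107906873 to 107920383) encodes RON, the receptor for macrophage-stimulating protein. Its DMSO libraries were at 1.07, 1.43 and 2.01 CPM (lowest, median, highest) for NaJa-D, 0.377, 0.505 and 0.728 for NaJa-F, and 0.0268, 0.118 and 0.277 for NaJa-G. No 2 of these ranges overlapped. Set against NaJa-D, the log2 fold change was -1.45 ± 0.19 in NaJa-F and -3.45 ± 0.28 in NaJa-G, and NaJa-G differed from NaJa-F by -2.0 ± 0.30.

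Both PDGF receptors were higher in NaJa-G. Pdgfra (ENSMUSG00000029231, chromosome 5, 75152292 to 75198215) encodes the receptor chain that binds most PDGF dimers and marks many fibroblasts. Its DMSO libraries were at 1.07, 1.24 and 1.66 CPM for NaJa-D, 2.39, 2.99 and 3.98 for NaJa-F and 2.88, 3.01 and 5.28 for NaJa-G. NaJa-D lay below both other lines, which overlapped. The log2 fold change against NaJa-D was 1.22 ± 0.10 (NaJa-F) and 1.57 ± 0.10 (NaJa-G) (adjusted p = 1.67e-11 and 3.54e-14). NaJa-G exceeded NaJa-F by 0.35 ± 0.08, which was 0.17 (adjusted p = 0.221) with DMSO day 1 alone.

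Pdgfrb (ENSMUSG00000024620, chromosome 18, 61045150 to 61085061) encodes the receptor for PDGF-BB and is a pericyte and smooth muscle gene. It had 0 to 4 counts per DMSO library in NaJa-D and 3 to 11 in NaJa-F. In NaJa-G the DMSO day 1 libraries were at 1.74, 1.78 and 1.53 CPM and the day 5 libraries at 0.535 and 0.416 CPM, above every library of the other lines. The log2 fold change was 4.16 (95% interval 3.24 to 5.08) against NaJa-D and 3.00 (2.28 to 3.72) against NaJa-F. Without the NaJa-D library of conflicting labels, which had 0 counts, the first was 3.71. NaJa-F and NaJa-D did not pass the test (1.16 ± 0.51, adjusted p = 0.0448).

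Fibroblast markers were also highest in NaJa-G. Of 7 fibroblast markers other than Pdgfra, Lum, Thy1 and Dpt were not in the table, and in DMSO the other 4 summed to 1.32 to 1.85 CPM (NaJa-D), 2.01 to 2.87 (NaJa-F) and 14.4 to 73.3 (NaJa-G). Of 6 pericyte and smooth muscle markers other than Pdgfrb, Des and Myh11 were not in the table, and the other 4 summed to 7.33 to 22, 3.00 to 5.82 and 16.5 to 40.2 CPM. These pericyte sums were lowest in NaJa-F and overlapped between NaJa-D and NaJa-G, unlike the receptors. In bulk libraries, a few cells of another type and a low level in many cells cannot be told apart. The paper reports the loss of host cells with passage, as given above. The part of cells of another type in the PDGF receptor results was not tested.

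Fgfr1 stepped up from line to line. Fgfr1 (ENSMUSG00000031565, chromosome 8, 25513654 to 25575718) encodes the FGF receptor typical of mesenchymal cells. Its DMSO libraries were at 2.23, 2.71 and 3.03 CPM for NaJa-D, 7.10, 9.0 and 10.3 for NaJa-F and 20, 21.7 and 29.0 for NaJa-G, with no overlap. The log2 fold change against NaJa-D was 1.73 ± 0.07 for NaJa-F and 3.17 ± 0.07 for NaJa-G (adjusted p = 3.49e-18 and 3.67e-25). NaJa-G was also 1.44 ± 0.05 above NaJa-F.

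The other FGF receptors differed less in DMSO. Fgfr4 (ENSMUSG00000005320, chromosome 13, 55152640 to 55168759), a receptor known for FGF15 signaling in liver, was higher in NaJa-G by 1.43 ± 0.28 against NaJa-D and 1.52 ± 0.27 against NaJa-F. Its libraries overlapped between the lines, and neither call held with DMSO day 1 alone. Fgfr2 (ENSMUSG00000030849, chromosome 7, 130162451 to 133123350), which has an epithelial and a mesenchymal isoform, was at 0.0891 to 0.532 CPM in all DMSO libraries and did not pass the test in any pair of lines. Fgfr3 (ENSMUSG00000054252, chromosome 5, 33721674 to 33737068), an epithelial FGF receptor, was at 1.88 to 3.36 CPM in DMSO. Its differences between lines were 0.30 (95% interval 0.06 to 0.54), 0.32 (0.08 to 0.57) and 0.02 (-0.20 to 0.24), and none passed. The difference between NaJa-G and NaJa-D did pass with edgeR, DESeq2, limma-trend, scaling by library size, the replicate block and DMSO day 5 alone. That between NaJa-F and NaJa-D passed with edgeR, limma-trend and scaling by library size.

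**Figure D3:**
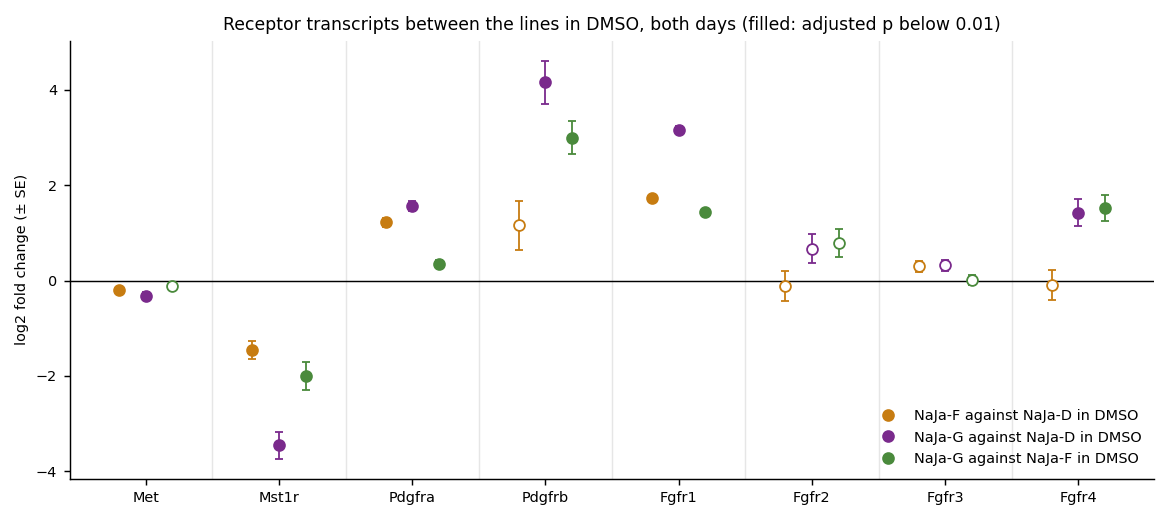
Log2 fold change (± SE) of each receptor between the lines in DMSO, averaged over both days, filled where the adjusted p was below 0.01. Mst1r falls to -3.45 and Pdgfrb rises to 4.16 in NaJa-G against NaJa-D, while Fgfr2 and Fgfr3 have open points only. Filled points of Mst1r against NaJa-D and of Pdgfrb in NaJa-G are descriptions, since these are the lines through which they entered the table.

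Encorafenib was compared with DMSO in each line on each day to ask which receptor transcripts moved when BRAF was inhibited. In NaJa-G, 5 receptors were higher and 0 lower at day 1, beside 35.3% and 28.7% of all genes, and 4 were higher and 1 lower at day 5, beside 28.5% and 24.7%. In NaJa-D, 1 was higher and 2 lower at day 1, beside 23.7% and 21.2%, and 1 higher and 3 lower at day 5, beside 18.3% and 14.7%. In NaJa-F, 1 was higher and 1 lower at day 1, beside 17.5% and 12%, and 1 higher and 2 lower at day 5, beside 9.70% and 8.50%. The median over the 8 receptors at day 1 and day 5 was 0.79 and 0.60 for NaJa-G, 0.35 and -0.32 for NaJa-D, and -0.047 and 0.13 for NaJa-F. The median over all genes lay between -0.017 and 0.044. The single receptor higher in NaJa-D and NaJa-F was Fgfr3 each time.

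**Figure D4:**
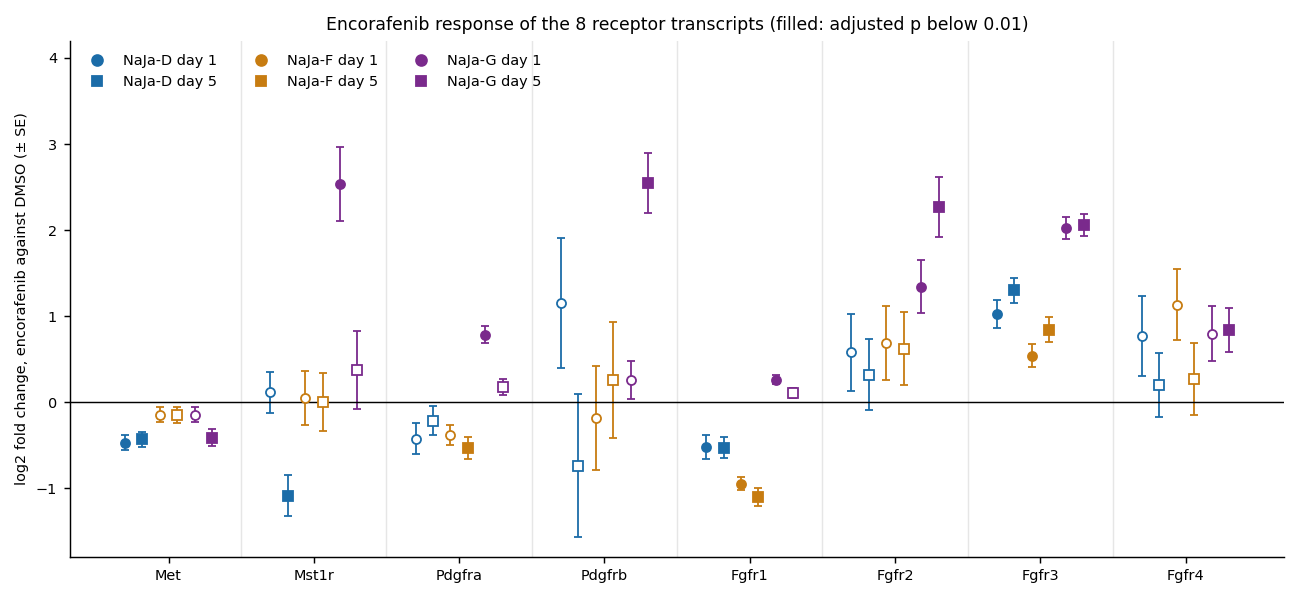
Log2 fold change (± SE) of encorafenib against DMSO for each receptor, colored by line, with circles for day 1, squares for day 5 and filled symbols where the adjusted p was below 0.01. All 6 Fgfr3 points are filled and above 0, and Fgfr1 lies below 0 in NaJa-D and NaJa-F but not in NaJa-G. Filled day 5 points of Fgfr2, Fgfr4 and Pdgfrb in NaJa-G and of Mst1r in NaJa-D are descriptions, because of how these receptors entered the table.

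Fgfr3 was higher under encorafenib in all 6 comparisons, as were 5.08% of all genes. None of the 8 receptors was lower in all 6, against 3.07% of all genes. In NaJa-G the day 1 libraries were at 1.88, 2.79 and 2.35 CPM in DMSO and 8.49, 10.4 and 9.26 in encorafenib, and at day 5 they were at 3.31 and 3.12 against 13.8, 13.7 and 12.8. The groups were far apart on both days. The log2 fold changes were 2.02 ± 0.12 and 2.06 ± 0.13, or 4.07-fold and 4.18-fold (adjusted p = 1.71e-14 and 6.15e-14).

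In NaJa-D, Fgfr3 was at 1.88, 2.35 and 2.40 CPM in DMSO and 4.08, 4.47 and 4.96 in encorafenib at day 1. At day 5 it was at 2.14, 2.51 and 1.91 against 4.94, 5.78 and 5.16. Again the groups did not overlap, and the changes were 1.03 ± 0.16 and 1.30 ± 0.15 (adjusted p = 3.65e-06 and 2.42e-08). NaJa-F had the smallest changes. Its libraries were at 2.44, 2.60 and 3.36 CPM in DMSO and 4.18, 4.22 and 3.82 in encorafenib at day 1, and at 2.29, 2.74 and 2.73 against 4.62 and 4.64 at day 5. The changes were 0.54 ± 0.13 (adjusted p = 0.00173) and 0.84 ± 0.15 (adjusted p = 7.42e-05). The day 1 call was lost without DMSO replicate 1 or replicate 2.

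Fgfr1 went the other way in 2 of the lines. In NaJa-F it was at 10.3, 9.94 and 9.92 CPM in DMSO and 5.02, 5.36 and 5.27 in encorafenib at day 1. At day 5 it was at 8.07, 7.80 and 7.10 against 3.53 and 3.60. Encorafenib libraries were thus well below their controls, with log2 fold changes of -0.95 ± 0.08 and -1.1 ± 0.10 (adjusted p = 4.75e-11 and 2.32e-09).

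In NaJa-D, where Fgfr1 was low, it went from 2.30, 2.72 and 2.23 CPM to 1.72, 1.75 and 1.58 at day 1 and from 2.98, 3.03 and 2.69 to 2.22, 1.76 and 2.14 at day 5. The changes were -0.52 ± 0.14 and -0.53 ± 0.12, without overlap. Each call hung on 1 library, DMSO replicate 2 at day 1 and encorafenib replicate 2 at day 5. In NaJa-G, Fgfr1 was slightly higher at day 1, at 24.5, 25.4 and 25.0 CPM against 21.7, 20 and 20.8 in DMSO (0.26 ± 0.05, adjusted p = 6.88e-05). At day 5 the encorafenib libraries at 28.3, 30.0 and 29.1 CPM overlapped DMSO at 25.1 and 29.0, and the difference of 0.11 (95% interval -0.0093 to 0.22) did not pass.

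Fgfr2 and Fgfr4 stayed low everywhere, and their highest values were in NaJa-G under encorafenib. Fgfr2 in NaJa-G was at 0.236, 0.174 and 0.532 CPM in DMSO and 0.705, 0.648 and 0.769 in encorafenib at day 1. At day 5 it was at 0.318 and 0.208 against 1.07, 1.69 and 1.1. The change was 1.34 ± 0.31 at day 1 (adjusted p = 3.14e-04). At day 5 it was 2.26 ± 0.35, a description, since Fgfr2 entered the table through those encorafenib libraries. Fgfr2 lay between 0.32 and 0.69 in NaJa-D and NaJa-F and passed in neither. Fgfr4 in NaJa-G at day 5 was at 0.635 and 0.818 CPM in DMSO and 1.43, 1.25 and 1.25 in encorafenib (0.84 ± 0.25). These are again the libraries through which it entered the table, and the call ended in 3 of 5 fits that left out 1 library, and with edgeR and DESeq2. In the other 5 comparisons, Fgfr4 had positive values of 0.20 to 1.13 that did not pass.

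Met was lower under encorafenib in NaJa-D on both days and in NaJa-G at day 5. In NaJa-D it was at 480, 494 and 548 CPM in DMSO and 331, 351 and 422 in encorafenib at day 1, and at 362, 340 and 284 against 250, 246 and 231 at day 5. The groups did not overlap, and the changes were -0.47 ± 0.09 and -0.43 ± 0.09 (adjusted p = 5.14e-05 and 1.46e-04). In NaJa-G at day 5, Met was at 402 and 324 CPM in DMSO and 266, 275 and 272 in encorafenib (-0.41 ± 0.10), and the call was lost without DMSO replicate 1, the higher of the pair. The other 3 values were -0.14 to -0.15 and did not pass.

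Mst1r moved in opposite directions in NaJa-D and NaJa-G, on different days. In NaJa-G at day 1 it was at 0.118, 0.0268 and 0.166 CPM in DMSO, which is 2 to 10 counts, and at 0.449, 0.595 and 0.445 in encorafenib. These groups did not overlap, and the change was 2.53 ± 0.43 (adjusted p = 6.34e-06). Without DMSO replicate 2, the library with 2 counts, it was 1.80 and still passed the test. At day 5 in NaJa-G it was 0.37 ± 0.46 and did not pass. In NaJa-D at day 5 Mst1r was at 1.47, 2.01 and 1.53 CPM in DMSO and 0.604, 0.892 and 0.801 in encorafenib, a change of -1.09 ± 0.24. In NaJa-F it was 0.05 at day 1 and close to 0 at day 5 (95% interval -0.68 to 0.68).

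Pdgfra was higher under encorafenib in NaJa-G at day 1, at 5.10, 5.25 and 4.81 CPM against 2.92, 3.01 and 2.88 in DMSO. The groups did not overlap, and the change was 0.79 ± 0.10 (adjusted p = 4.87e-08). At day 5 Pdgfra in NaJa-G was at 5.79, 6.01 and 5.83 CPM against 5.28 and 5.11 in DMSO, and the difference of 0.18 ± 0.10 did not pass. In NaJa-F at day 5 it was lower, at 2.84 and 2.18 CPM against 3.98, 3.58 and 3.22 (-0.53 ± 0.13, adjusted p = 0.0024). That call was lost without DMSO replicate 1 or encorafenib replicate 2. In NaJa-D and in NaJa-F at day 1 the values were -0.21 to -0.42 and did not pass.

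Pdgfrb had its largest encorafenib difference in NaJa-G at day 5, at 2.99, 2.84 and 2.55 CPM against 0.535 and 0.416 in DMSO (2.55 ± 0.35). At day 1 the encorafenib libraries at 1.81, 1.93 and 2.49 CPM lay just above DMSO, and 0.26 ± 0.22 did not pass. The 4 fibroblast markers summed to 88.7 to 128 CPM in NaJa-G under encorafenib and the 4 pericyte and smooth muscle markers to 91.4 to 162 CPM, against the DMSO sums given above. Fibroblast sums under encorafenib also exceeded DMSO in NaJa-D (2.81 to 7.82 CPM) and NaJa-F (4.22 to 6.12), where Pdgfrb did not pass. Pericyte and smooth muscle sums were 28.8 to 37.4 CPM in NaJa-D, above DMSO, and 2.60 to 4.14 in NaJa-F, overlapping DMSO. The second list was not of 1 direction. Acta2, a smooth muscle actin, reached 137 to 156 CPM in NaJa-G encorafenib day 5 and made up most of that sum, while Rgs5, a pericyte gene, was lower under encorafenib in all 6 comparisons (-2.97 to -7.89). Their part in the Pdgfrb result was not tested.

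Day 5 was compared with day 1 in DMSO to show what culture time did without the drug. In NaJa-D only Met passed, at -0.63 ± 0.09 (adjusted p = 1.57e-06), beside 29.0% of all genes. In NaJa-F, Pdgfra was higher (0.45 ± 0.11) and Fgfr1 lower (-0.39 ± 0.07), beside 16.7%. In NaJa-G, 4 receptors passed, beside 34.1%. There Pdgfra was higher by 0.82 ± 0.11, Fgfr1 by 0.38 ± 0.06 and Fgfr4 by 1.41 ± 0.32, while Pdgfrb was lower by a log2 fold change of -1.84 ± 0.36. The day 5 encorafenib difference of Pdgfrb in NaJa-G was therefore measured against a control that was itself lower than at day 1. Leaving out 1 library ended the Pdgfra call of NaJa-F in 3 of 6 fits, and the Fgfr4 call of NaJa-G did not hold without DMSO day 5 replicate 3.

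Whether the response differed between lines was tested directly, as the difference of the encorafenib fold changes. At day 1, 4 receptors differed between NaJa-G and NaJa-D and 4 between NaJa-G and NaJa-F, beside 36.4% and 33.5% of all genes. They were Mst1r, Pdgfra, Fgfr1 and Fgfr3 in both, always with the higher value in NaJa-G, and the 2 comparisons share the NaJa-G libraries. At day 5, 4 differed between NaJa-G and NaJa-D and 3 between NaJa-G and NaJa-F, beside 21.9% and 24.2%. The Fgfr1 response was 1.21 ± 0.09 higher in NaJa-G than in NaJa-F at day 1 and 1.20 ± 0.12 higher at day 5 (adjusted p = 2.5e-11 and 3.69e-09). The Fgfr3 response was higher by 1.48 ± 0.18 and 1.22 ± 0.20.

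Between NaJa-F and NaJa-D, 0 of 8 responses differed on either day by limma-voom, beside 8.79% of all genes at day 1 and 8.85% at day 5. At an unadjusted p below 0.05 there were 3 and 4. The edgeR, DESeq2 and limma-trend fits each called 1 at day 5, Fgfr1 (-0.57 ± 0.16 in limma-voom, adjusted p = 0.0142), and 0 at day 1. Between the days, 0 responses differed in NaJa-D and NaJa-F, beside 7.29% and 5.88%, with 1 and 0 at an unadjusted p below 0.05. The 1 was Mst1r in NaJa-D (-1.20), which DESeq2 called. It is a description, since Mst1r entered the table through NaJa-D libraries other than those of encorafenib day 5. In NaJa-G 3 differed between the days, beside 31.7%. There Mst1r (-2.16 ± 0.63) and Pdgfra (-0.61 ± 0.14) responded less at day 5 than at day 1 and Pdgfrb more (2.29 ± 0.41). From day 1 to day 5, mean Pdgfra went from 2.94 to 5.20 CPM in DMSO and from 5.05 to 5.88 in encorafenib. Its smaller day 5 difference thus came with a higher control.

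The MET family list mixed a ligand, activating proteases, their inhibitors, plexins and other partners. Hgf was not in the table, and Mst1, the MST1R ligand, was at 0.33 to 0.72 CPM in DMSO day 1 groups. Between NaJa-G and NaJa-D, 9 of the 11 listed genes in the table were lower and 1 higher, beside 34.1% and 33.3% of all genes, with a median log2 fold change of -2.28. St14, the surface protease matriptase, was at -4.00 and its inhibitor Spint1 at -3.94. Under encorafenib, Plau, the protease urokinase, and Spint1 were higher in all 6 comparisons, with Plau at 1.57 and 2.5 in NaJa-G. Cd44, a MET coreceptor, was lower in 4 of the 6.

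Among 10 PDGF ligands and partners, 7 were higher and 1 lower in NaJa-G under encorafenib at day 1, and 4 and 1 at day 5, with medians of 1.08 and 0.36. Of all genes, 35.3% were higher and 28.7% lower at day 1 and 28.5% and 24.7% at day 5. Pdgfb was higher in all 6 comparisons, from 0.47 in NaJa-D at day 5 to 1.64 in NaJa-G at day 5. Pdgfa, the main PDGFRA ligand, was higher by 2.05 in NaJa-G at day 1 and by 0.81 and 0.82 in NaJa-D. Furin, which cleaves growth factor precursors, was lower in 5 of the 6. In DMSO, Pdgfb had its lower level in NaJa-G (-2.56 against NaJa-D), the opposite order to the PDGF receptors.

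Of the genes on the FGF ligand list, 8 were in the table, and 14 were not, among them Fgf10. The 8 include Fgf13, an intracellular FGF, so the counts are not of receptor ligands alone. In NaJa-G under encorafenib 4 were higher and 2 lower on each day, beside 35.3% and 28.7% of all genes at day 1 and 28.5% and 24.7% at day 5. Fgf2, a broad FGF ligand, exceeded its NaJa-D level by 2.32 (log2) in NaJa-G, and was lower under encorafenib in both NaJa-F (-1.80 and -1.06) and NaJa-G (-2.14 and -0.55). Fgf13 was higher in all 6 comparisons. Fgf18 was higher in 5, by up to 2.24 in NaJa-G at day 1. Of 17 coreceptors and binding proteins, 13 were higher and 1 lower in NaJa-G at day 1, beside 35.3% and 28.7% of all genes, among them Gpc1, a heparan sulfate carrier (2.29), and Fgfrl1, a receptor without a kinase domain (1.37). Sulf2, an enzyme that trims heparan sulfate, exceeded its NaJa-D level by 5.10 in NaJa-G. Kl and Klb were not in the table.

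Of 16 shared adaptors, 11 were higher and 1 lower in NaJa-G under encorafenib at day 1 and 8 and 2 at day 5, with medians of 0.30 and 0.24. The shares of all genes were 35.3% and 28.7%, then 28.5% and 24.7%. Gab1, the docking protein of MET and other receptors, was higher in all 6 encorafenib comparisons, from 0.87 to 2.25. Frs2 and Grb2, which link FGF receptors to RAS, were between -0.10 and 0.46, and Frs2 alone of the pair passed, in NaJa-G at day 1. Of 16 genes of receptor turnover and inhibition, 8 were higher and 5 lower in NaJa-G at day 1 (median 0.24), beside 35.3% and 28.7% of all genes. Spry2 and Spry4 were lower in all 6, with Spry4 at -3.64 in NaJa-G at day 1, and Spry1 and Ptprj were higher in all 6. Of 4 regulators of FGFR2 splicing, 2 were higher and 2 lower in NaJa-G compared with NaJa-D, beside 33.3% and 34.1% of all genes. Esrp1, which promotes the epithelial FGFR2 isoform, differed between NaJa-G and NaJa-D by -3.20. Counts per gene do not show which FGFR2 isoform was made.

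Over the 12 group means of log2 CPM, the genes whose levels most resembled each receptor were listed as a description. All 12 points come from 3 lines and are not independent. Fgfr1 was closest to Vim and Zeb2 (r = 0.983 each), a mesenchymal filament and a mesenchymal transcription factor, and to Tmem64. Pdgfrb was closest to Bgn (r = 0.970), Col1a1 (r = 0.965) and Slc6a8, the first 2 being matrix genes. Mst1r was closest to Atp8b1 (r = 0.971), Entpd5 and Fermt1, and Pdgfra to Prkacb (r = 0.976), Evi5 and Ift80. Fgfr3 was closest to Zbtb4 (r = 0.964), Rhoq and Nagk, Fgfr2 to Tram2, Pon2 and Dync1li2, Fgfr4 to Zdhhc20, Tsc22d3 and Vldlr, and Met to Eprs (r = 0.944), Slc30a7 and Nup155. Among the receptors themselves, Fgfr1 and Pdgfra had r = 0.939 and Fgfr1 and Mst1r r = -0.832.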

How the data were processed

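RNA-seq was analysed from 34 libraries of mouse cell lines in 12 groups, taken from the sample titles. The authors deposited raw counts per Ensembl gene, 14107 genes in all, each over 1 CPM by total count in at least 2 libraries. Per the labels, reads were trimmed with Trimmomatic 0.39 and aligned with STAR 2.5.2b to GRCm38 (mm10). The counting tool, annotation release and strand setting are not given in the sources used here, so reads of overlapping or antisense genes cannot be told apart. Total counts were 46007050 to 80121299, and their size limits precision for the receptors with few counts.

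From these counts, CPM with TMM factors (0.876 to 1.07) and a limma-voom fit of 12 group means were computed (R 4.3.3, limma 3.58.1, edgeR 4.0.16). The methods of the study name limma, TMM, a summed count above 2 and an adjusted p below 0.01. The voom step is a choice made here. Tests were two-sided, with Benjamini-Hochberg adjustment over all 14107 genes, for 21 comparisons. A response difference is the difference between log2 fold changes. Intervals are 95% intervals of the fit. Gene symbols and exon lengths came from GENCODE M21, which matched 14064 identifiers. The code was tested on simulated data.

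Nothing in the labels says whether replicates were separate cultures, so p-values measure the spread between these libraries, which may be technical. The receptors, the marker lists and the pathway lists were chosen with earlier results of these data known. All 8 receptors were named. List genes could be named as the called genes with the 2 highest and 2 lowest values of a comparison, and the other list genes named were chosen after their values were seen. The 3 genes most similar to each receptor were sought among those averaging at least 2 on the log2 CPM scale. Same-numbered replicates did not deviate together throughout (r from -0.292 to 0.480 over 15 pairs of groups), and the numbers were not used as pairs. Between NaJa-G and NaJa-F in DMSO day 1, r was 0.346 for replicate 1 and 0.480 for replicate 3, but -0.292 for replicate 2. Whether some of these libraries shared a batch was not tested. Alternatives were edgeR, DESeq2 1.42.0, limma-trend, other scalings, filters and thresholds, a replicate block, fits of only the groups compared, single days and leaving out each library.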

Additional observations from a re-analysis of the deposited data

Results flagged for a closer look

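The encorafenib response of these receptors differed between lines or days in the following tests of the difference itself, given as differences of log2 fold changes ± SE by limma-voom. At day 1, NaJa-G exceeded NaJa-D for Mst1r (2.42 ± 0.49), Pdgfra (1.21 ± 0.20), Fgfr1 (0.78 ± 0.15) and Fgfr3 (1.00 ± 0.20). NaJa-G exceeded NaJa-F at day 1 for Mst1r (2.48 ± 0.53), Pdgfra (1.17 ± 0.16), Fgfr1 (1.21 ± 0.09) and Fgfr3 (1.48 ± 0.18). Without NaJa-G DMSO day 1 replicate 2 the Mst1r differences were 1.69 and 1.75.

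At day 5, NaJa-G exceeded NaJa-D for Pdgfrb (3.29 ± 0.90), Fgfr1 (0.63 ± 0.13), Fgfr2 (1.94 ± 0.54) and Fgfr3 (0.76 ± 0.19). Fgfr2 entered the table only through NaJa-G encorafenib day 5 and Pdgfrb only through NaJa-G libraries, so their differences here, and that of Pdgfrb between days, are descriptions. The same holds for Mst1r against NaJa-D, the line through which it entered. Leaving out 1 library put the Pdgfrb difference between 2.41 and 4.33 and ended its call in 5 and the Fgfr2 call in 6 of 11 fits, and the Fgfr3 call did not hold without NaJa-D DMSO day 5 replicate 2 or NaJa-G DMSO day 5 replicate 3. NaJa-G exceeded NaJa-F at day 5 for Pdgfra (0.71 ± 0.16), Fgfr1 (1.20 ± 0.12) and Fgfr3 (1.22 ± 0.20), and the Pdgfra call was lost without NaJa-F encorafenib day 5 replicate 2. Within NaJa-G, the day 5 response minus the day 1 response was -2.16 ± 0.63 for Mst1r, -0.61 ± 0.14 for Pdgfra and 2.29 ± 0.41 for Pdgfrb. Leaving out 1 library ended the Mst1r call in 5 of 11 fits and put its value between -2.72 and -1.43.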

How the results depend on the processing

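Counts of receptors passing the test moved by over 1.5 times in these settings, and the cause was not tested. For the response difference of NaJa-F and NaJa-D at day 5 the count was 1 with edgeR, DESeq2, limma-trend or an adjusted p below 0.05. For the day difference of the response in NaJa-D it was 1 with DESeq2, the replicate block or that threshold, which also gave 4 for encorafenib in NaJa-F at day 1 and 5 for NaJa-G minus NaJa-F at day 5. Culture time gave 1 in NaJa-F with limma-trend or only the groups compared, and 2 in NaJa-D with scaling by library size. Fits of only the groups compared gave 3 for encorafenib in NaJa-G at day 1, 2 for culture time in NaJa-G and 2 for NaJa-G minus NaJa-D at day 5. Where a change of 1 or more on the log2 scale was also required, encorafenib gave 1 and 2 (NaJa-D), 0 and 1 (NaJa-F), 3 and 3 (NaJa-G) at day 1 and day 5, culture time gave 0 (NaJa-D), 0 (NaJa-F), 2 (NaJa-G), and NaJa-G minus NaJa-D 2 on each day. Without 1 library, counts ranged from 1 to 4 for NaJa-G minus NaJa-D at day 5, 0 to 1 for NaJa-F minus NaJa-D on either day and for the day difference in NaJa-D, 1 to 2 for encorafenib in NaJa-F at day 1 and culture time in NaJa-F, and 3 to 5 for encorafenib in NaJa-G at day 5. A lone library left in a group was assumed to vary like the others. With DMSO day 5 alone, Met reversed against NaJa-D, to 0.0875 (NaJa-F) and 0.143 (NaJa-G). The replicate block moved no other count by that much, but the replicate numbers did not pair the libraries throughout. Scaling by library size shifted the median of all genes by up to 0.18.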
